A study of Mus musculus with 2 samples.

Results

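The genes described here make collagen fit for secretion and assembly. They are 9 in number and comprise the subunits of prolyl 4-hydroxylase (*P4ha1*, *P4ha2* and *P4hb*), the lysyl hydroxylases (*Plod1*, *Plod2* and *Plod3*), the collagen chaperone *Serpinh1*, also called Hsp47, and the cross-linking enzymes *Lox* and *Loxl2*. They were taken for what they encode, with earlier results of these data known, as were the gene lists set beside them. Every probe set that the platform annotation pairs with 1 of these symbols alone was used. Of the 9 genes, 8 were measured in this way, by 14 probe sets, out of 18194 genes and 34958 single-gene probe sets in all. *Loxl2* is paired with a second gene symbol in both of its probe sets and was not analysed here.

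Expression was compared between mouse embryonic stem cells (ESCs) of the TT2 line, which comes from an F1 embryo of C57BL/6 and CBA parents, and a TT2-derived line without functional G9a. G9a, the product of *Ehmt2*, is a histone methyltransferase that places the H3K9me2 mark. Each line was measured on 1 array. Per the design text, TT2 cells with a mutant and a WT allele of G9a were given a floxed allele in place of the latter, from which Cre removed exons 26 and 27, so that the catalytic core of the SET domain was lost. Both samples bear the same note on 800 nM 4-hydroxytamoxifen for 48 h and 48 h without it, and no source says on its own whether the WT cells were treated. The labels name a medium with serum replacement, little serum and LIF, whereas the methods of the study name serum with LIF and, for the G9a-KO cells, a layer of inactivated embryonic fibroblasts. No other clone or culture was compared, and the values cannot separate the loss of G9a from a difference between the lines.

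As background, collagen chains are hydroxylated in the endoplasmic reticulum (ER) before they fold. Prolyl 4-hydroxylase, made of catalytic α subunits and the protein disulfide isomerase P4HB, modifies proline residues and so stabilises the triple helix. The lysyl hydroxylases modify lysine residues, which can then carry sugars and form cross-links. Both kinds of enzyme need oxygen, iron, 2-oxoglutarate and ascorbate. HSP47 binds the folded helix in the ER, and lysyl oxidases act outside the cell, where they oxidise lysine residues so that neighbouring molecules are joined. Primitive endoderm and its parietal derivative are known for secreting large amounts of type IV collagen into basement membrane, whereas undifferentiated ESCs make little matrix.

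Levels below are on the log2 scale relative to the 75th percentile of all probe sets of the array, and differences are G9a-KO minus WT on that scale. The median of all probe sets lay at -2.24 on the WT array and at -2.13 on the G9a-KO array. With 1 array per group there is no spread between replicates and no test, and precision is limited by this number. A fold of 1.3, a log2 difference of 0.38, was the limit of the study for this pair and was used here to count genes, with 2-fold given beside it. The 18 probe sets for RNA added before hybridization differed by -0.16 to 0.21, with an SD of 0.11, which shows part of the technical spread only. The 27 poly-A control probe sets spread more widely, from -0.52 to 0.48 with an SD of 0.21. The extremes of these passed the 1.3-fold limit in both directions. A difference of 0.056 in a single probe set is that of a value deposited as identical on both arrays, since the 75th percentiles differed by this much.

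The hydroxylases and the chaperone were all higher on the G9a-KO array. Of the 14 probe sets, 10 were over 1.3-fold higher and 0 were lower, where 17.9% of all single-gene probe sets were higher and 15.4% lower. Over 2-fold higher were 7 of the 14, against 4.16% of all, and 0 were lower, against 3.32%. By the brightest probe set of each gene, 7 of the 8 genes were over 1.3-fold higher (17.4% of all genes, with 17.2% lower) and 4 were over 2-fold higher (4.61% of all genes, with 3.76% lower). The median difference of the 8 genes was 1.19 (2.29-fold), and that of all genes was 0.036. The gene within the limit was *Lox*.

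**Figure D1:**
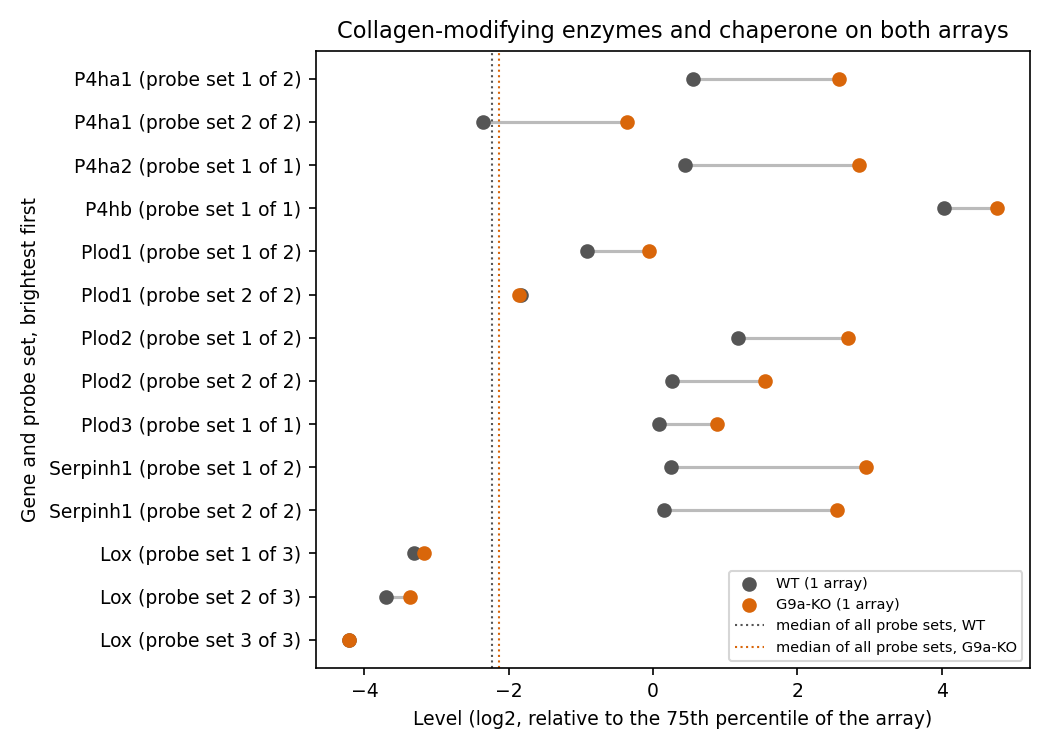
Level of each of the 14 probe sets of 8 genes (horizontal axis, log2 units from the 75th percentile of its array) in WT (grey) and in G9a-KO (orange), with 1 point for each array and dotted lines at the median of all probe sets. The points of *P4ha1*, *P4ha2* and *Serpinh1* lie about 2 log2 units or more apart, whereas the 3 probe sets of *Lox* lie left of both medians.

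*Serpinh1*, whose product is dedicated to collagen, had the largest difference of the 8 genes. Its brighter probe set read 0.24 in WT and 2.95 in G9a-KO, a difference of 2.70 (6.52-fold higher), rank 99 of the 18194 genes. The other probe set, of a kind that can bind several transcripts, read 0.16 and 2.55, a difference of 2.40 (5.26-fold). Both probe sets thus placed the gene near the 75th percentile in WT and far above it in G9a-KO.

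The catalytic subunits of prolyl 4-hydroxylase came next. *P4ha2* had 1 probe set, which read 0.45 in WT and 2.86 in G9a-KO. The difference of 2.41 (5.32-fold higher) placed it at rank 141 of all genes. *P4ha1*, the α subunit found in most cell types, read 0.55 and 2.57 by its brighter probe set, a difference of 2.02 (4.05-fold, rank 201). Its dimmer probe set read -2.35 in WT, just below the median, and -0.36 in G9a-KO. That gave 1.99 (3.98-fold), so the probe sets of *P4ha1* differed from each other by only 0.026 in the size of the change although they lie far apart in level. *P4hb*, the β subunit, which also works as a general disulfide isomerase of the ER, was bright on both arrays at 4.04 and 4.77. Its difference of 0.74 (1.67-fold higher, rank 1355) was the smallest of the 7 genes past the limit and stood beside 2.02 and 2.41 for the α subunits.

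Among the lysyl hydroxylases the difference was largest for *Plod2*, whose product hydroxylates the telopeptides of collagen chains. It read 1.18 in WT and 2.70 in G9a-KO by its brighter probe set (1.52, 2.87-fold higher, rank 377) and 0.26 and 1.55 by the other (1.29, 2.44-fold). *Plod3*, which can also add sugars to hydroxylysine and is needed for type IV collagen, read 0.089 and 0.88, a difference of 0.80 (1.74-fold, rank 1224). *Plod1*, which acts on the helical part of collagen chains, read -0.92 and -0.054 by its brighter probe set, a difference of 0.87 (1.82-fold, rank 1056). The other probe set of *Plod1* lay little above the median at -1.83 and -1.86 and differed by -0.035. The higher value of *Plod1* therefore rests on 1 of its 2 probe sets, and the mean over both was 0.42.

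*Lox*, the lysyl oxidase that acts on fibrillar collagen and elastin, did not share this pattern. Its 3 probe sets read -3.32, -3.70 and -4.21 in WT and -3.18, -3.37 and -4.22 in G9a-KO. All were under the probe set median on either array, a range in which the background makes up much of the signal. The differences were 0.14, 0.33 and -0.0068, each within the 1.3-fold limit. A dim signal does not show that the transcript was absent.

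Bright and dim genes differ in how far their values spread, so each gene was also set beside the 1000 genes nearest to it in mean level. A difference at least as high was held by 5 of these for *Serpinh1* (0.5%), 9 for *P4ha2* (0.9%), 12 for *P4ha1* (1.2%) and 24 for *Plod2* (2.4%). For *P4hb* it was 43 (4.3%), for *Plod1* 85 (8.5%), for *Plod3* 101 (10.1%) and for *Lox* 378 (37.8%). The genes thus fell into the same order as by their differences, except that *P4hb* stood ahead of *Plod1* and *Plod3*. These shares describe the pair of arrays and are no test of the genotype.

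**Figure D2:**
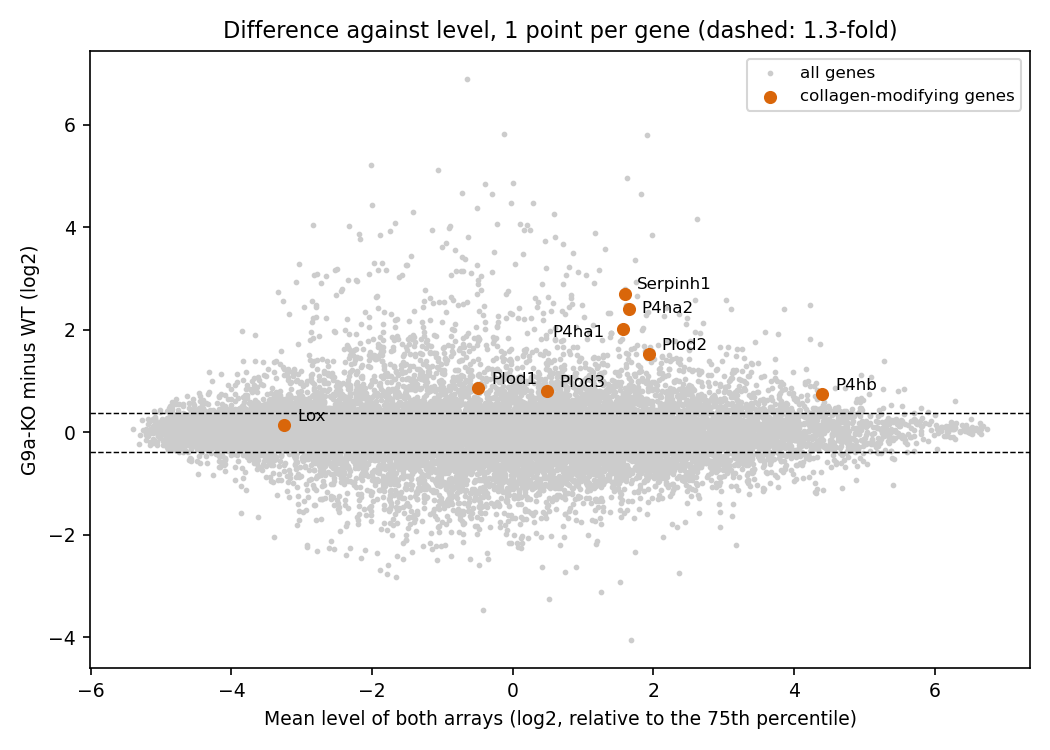
G9a-KO minus WT (vertical axis, log2) plotted over the mean level (horizontal axis, log2 units from the 75th percentile) for 18194 genes (grey, 1 point per gene, brightest probe set), with the 8 collagen-modifying genes in orange and dashed lines at 1.3-fold. *Serpinh1* (2.70), *P4ha2* (2.41) and *P4ha1* (2.02) lie near the upper edge of the points at their level, and *Lox* (0.14) lies between the dashed lines.

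The promoters of the genes were read for the letters of a factor that acts on several of them. As background, *P4ha1*, *P4ha2* and *Plod2* are targets of the hypoxia-inducible factor (HIF), whose binding sites hold the letters ACGTG or GCGTG. RefSeq promoter windows of build GRCm38.p6 (250 bases before and 50 after a gene start) were matched for 6 of the 9 genes, *P4ha1*, *P4ha2*, *P4hb*, *Plod1*, *Plod3* and *Serpinh1*. Shown here are the 250 bases before the start, 5′ to 3′ along the gene, for the 3 genes with the largest differences and for *Plod3*, which had a smaller difference and the most matches within these 250 bases. Capitals mark ACGTG or GCGTG on either strand.
Serpinh1 (chr7:99353240-99353489, minus strand): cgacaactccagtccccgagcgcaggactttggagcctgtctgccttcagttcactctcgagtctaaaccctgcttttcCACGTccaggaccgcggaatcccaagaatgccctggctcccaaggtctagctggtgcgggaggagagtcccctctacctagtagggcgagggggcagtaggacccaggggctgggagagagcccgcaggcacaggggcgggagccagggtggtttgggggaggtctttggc
P4ha2 (chr11:54100674-54100923, plus strand): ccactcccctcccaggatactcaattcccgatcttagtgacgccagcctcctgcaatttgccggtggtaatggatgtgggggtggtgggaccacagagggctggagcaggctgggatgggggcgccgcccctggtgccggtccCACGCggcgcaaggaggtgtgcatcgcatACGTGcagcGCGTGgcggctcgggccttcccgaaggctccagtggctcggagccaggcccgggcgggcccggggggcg
P4ha1 (chr10:59323046-59323295, plus strand): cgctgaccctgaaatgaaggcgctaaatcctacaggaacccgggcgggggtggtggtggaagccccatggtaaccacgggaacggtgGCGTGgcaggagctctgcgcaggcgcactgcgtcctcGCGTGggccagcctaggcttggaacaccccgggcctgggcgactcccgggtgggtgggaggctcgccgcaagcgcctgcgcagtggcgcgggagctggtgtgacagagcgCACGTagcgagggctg
Plod3 (chr5:136986769-136987018, plus strand): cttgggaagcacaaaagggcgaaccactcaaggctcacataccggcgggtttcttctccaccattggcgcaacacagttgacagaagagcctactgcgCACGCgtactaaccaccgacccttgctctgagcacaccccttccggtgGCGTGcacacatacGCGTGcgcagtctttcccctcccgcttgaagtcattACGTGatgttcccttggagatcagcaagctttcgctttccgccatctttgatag

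Each of the 6 windows of 300 bases held at least 1 of these letter groups, counted on both strands. ACGTG or GCGTG stood in 43.8% of all 32851 windows. In the 13159 windows whose GC content was within the range of the 6 genes (53.3% to 70.3%, median of all windows 52.7%), the share was 59.3%. *Plod3* held 1 ACGTG and 3 GCGTG, *P4ha2* 2 of each, *P4ha1* 1 and 2, *P4hb* 2 and 1, *Plod1* 0 and 2, and *Serpinh1* 1 and 0. *P4ha2* and *Plod3* thus held the most matches, with differences of 2.41 and 0.80, and *Serpinh1*, with 2.70, the fewest. ACGTG overlaps the E-box CACGTG, to which MAX binds. The E-box stood in 7.15% of all windows and in 0 of the 6. A match describes the letters only, and nothing was measured on binding.

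Other genes that act on collagen were mixed, unlike the hydroxylases and the chaperone. Of 24 measured, 10 were over 1.3-fold higher and 6 lower in G9a-KO, against 17.4% and 17.2% of all genes. Their median was 0.18. Among 7 folding and export genes, 5 were higher and 2 lower, and both galactosyltransferase genes, *Colgalt1* (0.85) and *Colgalt2* (0.41), were higher. Of 6 hydroxylase relatives, 2 were higher and 1 was lower. Of 6 propeptide-processing genes, 1 was higher and 2 were lower, and of 3 lysyl oxidase relatives, 0 were higher and 1 was lower.

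Among these genes, *Fkbp7* (1.22, from -1.44 in WT to -0.22 in G9a-KO), an ER prolyl isomerase, and *Crtap* (1.10, from 1.19 to 2.29), a partner of prolyl 3-hydroxylase, had the highest differences. The other probe set of *Fkbp7*, below the median on both arrays, differed by 0.056. *Ppib*, the cyclophilin of the same complex, was bright and 1.64-fold higher (3.74 and 4.45), whereas *P3h1*, its enzyme, differed by 0.24 by the brighter probe set and 0.85 by the other. *Fkbp14*, another ER prolyl isomerase, was 3.32-fold lower (-0.42 and -2.16), although its other probe set, below the median on both arrays, differed by 0.056. *Pcolce2* (2.14-fold) and *Pcolce* (1.66-fold), enhancers of procollagen processing, were lower as well. The relatives of *Lox* that were measured, *Loxl1* (-0.34), *Loxl3* (0.0036) and *Loxl4* (-0.49 and, by its other probe set, 0.15), were not higher. *Ppib*, *P3h1*, *Colgalt1*, *Colgalt2*, *Pcolce* and the *Loxl* genes were named after their values were seen.

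The collagen chains themselves differed in few members. Of 39 measured, 10 were over 1.3-fold higher and 0 lower, where 17.4% of all genes were higher and 17.2% lower. The median of the chains was 0.18, and 21 were under the probe set median on either array. The chains of basement membrane *Col4a1* (-0.86 in WT and 4.10 in G9a-KO) and *Col4a2* (-2.43 and 2.44) differed by 4.95 and 4.87, more than any of the modifying enzymes. The other type IV chains, *Col4a3* (0.056), *Col4a4* (0.13), *Col4a5* (-0.084) and *Col4a6* (-0.051), did not pass the limit. The fibrillar chain *Col5a2* (-1.98 and 1.08) differed by 3.06, and 1.54 by its other probe set. *Col18a1*, another basement membrane collagen, differed by 1.58 (-0.32 and 1.25), and 0.81 by its other probe set.

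The ER folding genes, of which P4HB is a relative, were nearly all higher. Of 16 measured, 15 were over 1.3-fold higher and 0 lower, where 17.4% of all genes were higher and 17.2% lower. The median of the 16 was 0.69 (1.62-fold), close to the 0.74 of *P4hb*. All 9 disulfide isomerase and oxidase genes were higher by their brightest probe set. The lowest probe sets of *Erp44* (0.20), *Pdia4* (0.23) and *Ero1b* (0.12) were within the limit. *Ero1a*, the oxidase that recharges P4HB, was 3.82-fold higher (1.70 and 3.63), and its 3 probe sets ran from 1.93 to 2.27. *Pdia5* (1.18), *Pdia3* (1.05, and 0.20 by its other probe set) and *Pdia6* (1.00, and 0.59 by its other probe set) followed. *Hspa5* (0.32), the ER chaperone BiP, was the gene within the limit.

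Genes regulated by HIF outside collagen modification were more often higher than lower. Of 20 measured, 8 were over 1.3-fold higher and 2 lower, where 17.4% of all genes were higher and 17.2% lower. The median of the 20 was 0.15. The lower genes were *Adm* (-0.72) and *Kdm3a* (-0.64). *Pdk1* differed by -0.23 by its brightest probe set, and its 4 probe sets ran from -0.57 to 2.49. *Vegfa* (1.70, and 0.69 by its other probe set), *Ndrg1* (1.62), *Ddit4* (1.03) and *Mxi1* (0.99) had the highest differences among genes whose probe sets ran 1 way. The genes of glucose uptake and glycolysis in the list, all given here after their values were seen, were split. *Hk2* was 1.70-fold higher (3.54 in WT and 4.31 in G9a-KO), and *Pfkfb3* was 2.78-fold higher (-1.83 and -0.36) by its brighter probe set but differed by -0.24 by the other. *Aldoa* (0.36), *Slc2a1* (0.15), *Pgk1* (0.13), *Pfkfb4* (0.067) and *Ldha* (0.020) were within the limit, although single probe sets of *Aldoa* (0.45) and *Slc2a1* (0.40) passed it. Other enzymes that use 2-oxoglutarate went both ways, with 5 of 11 higher, 2 lower and a median of 0.36. *Tmlhe* (1.55), *Asph* (1.00) and *Phyh* (0.97) were higher, and *Hif1an* (-0.99), which hydroxylates HIF itself, was lower. Other probe sets ran from 0.056 to 2.46 for *Tmlhe* and from -0.019 to 1.19 for *Asph*, and 1 of 3 for *Hif1an* differed by -0.027. *Egln1* and *Egln3* stand in both of these lists.

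**Figure D3:**
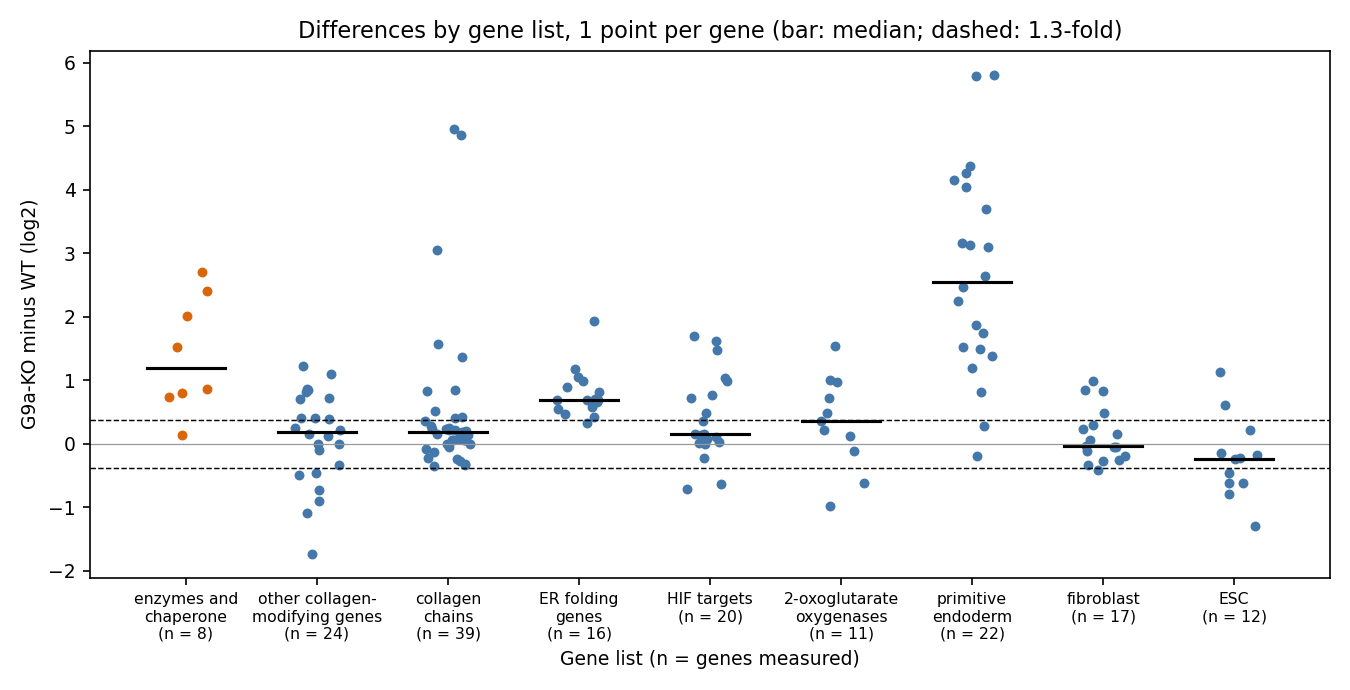
G9a-KO minus WT (vertical axis, log2) for each measured gene of 9 lists (horizontal axis), 1 point per gene, with a bar at the median and dashed lines at 1.3-fold. The 8 collagen-modifying enzymes and chaperone (orange) have a median of 1.19, the ER folding genes 0.69, the primitive endoderm markers 2.56 and the fibroblast markers -0.040.

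The cells on both arrays carried the markers of ESCs. All 12 ESC markers lay above the median on both arrays, from 1.17 to 5.98 in WT and from 0.40 to 6.59 in G9a-KO, with *Pou5f1* at 4.91 and 4.45. Of these, 2 were over 1.3-fold higher and 5 lower, where 17.4% of all genes were higher and 17.2% lower. Among the higher was *Tfcp2l1* (1.14), whose 3 probe sets ran from 0.12 to 1.14. Among the lower were *Lin28a* (-1.29), *Zfp42* (-0.79), *Sall4* (-0.62) and *Pou5f1* itself (-0.46). Markers of primitive endoderm were nearly all higher. Of 22 measured, 20 were over 1.3-fold higher and 0 lower, against the same shares of all genes, with a median of 2.56. *Thbd* (0.27) and *Fst* (-0.19) were within the limit. *Cubn* (5.82), *Srgn* (5.79), *Dab2* (4.37) and *Lama1* (4.26) had the highest differences, and the log2 of the summed level of all 22 was 4.13 in WT and 7.23 in G9a-KO. Fibroblast markers were read because fibroblasts served as feeders. Of 17, 4 were higher, *Lum* (0.98), *Mmp2* (0.84), *Col1a2* (0.83) and *Twist1* (0.48), and 1 was lower, with a median of -0.040. Of the 17, 9 lay below the median on both arrays, among them *Lum*, *Col1a1*, *Col3a1*, *Thy1* and *Dcn*. The log2 summed level was 4.19 in WT and 4.20 in G9a-KO. *Vim*, at 3.88 and 3.84, was the brightest gene of this fibroblast list, so the sums mostly follow 1 gene. Whether the share of fibroblasts differed between the cultures was not tested. *Loxl1* (-0.34) and 3 collagen chains stand in this list too. The part of endoderm cells in the differences of the collagen-modifying genes was not tested, and in RNA of whole cultures more cells of a type cannot be told apart from more RNA per cell.

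Genes beside the collagen-modifying genes in the genome were compared because position was not used to choose them. The 2 nearest measured genes on each side of the 8 genes, 32 in all, had a median difference of 0.056. Of these, 7 were over 1.3-fold higher and 5 lower, where 17.4% of all genes were higher and 17.2% lower. Beside *P4ha2*, *Pdlim4*, which encodes an actin-associated protein, was 2.64-fold higher (-0.47 and 0.93) and the 3 others, *Slc22a4*, *4933405E24Rik* and *Csf2*, were dim and within the limit. Beside *Serpinh1*, *Gdpd5* was 2.13-fold higher (-1.25 and -0.16) and *Map6* was 1.43-fold lower (-1.86 and -2.37). Beside *P4ha1*, *Pla2g12b* was 2.10-fold higher (-1.38 and -0.31), *Septin10* was higher by 0.58 on the log2 scale and *Sowahc* was 1.31-fold lower. None of the 4 neighbours of *Plod2* passed the limit. All the neighbours named here were chosen after their values were seen.

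The targeted gene was read to check the labels. *Ehmt2* read 2.05 in WT and 0.51 in G9a-KO by its brighter probe set (2.90-fold lower) and -2.27 and -2.07 by the other, and since no source used here places these probe sets against the deleted exons, they do not check the label.

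The differences were computed again with other choices. Over 8 other ways of scaling and of choosing probe sets, *Serpinh1* ran from 2.55 to 2.73, *P4ha2* from 2.31 to 2.43 and *P4ha1* from 1.92 to 2.04. *Plod2* ran from 1.40 to 1.54, *Plod3* from 0.69 to 0.82 and *P4hb* from 0.63 to 0.74, and *Plod1* from 0.42 to 0.87. All 7 genes stayed above the 1.3-fold limit under each of them. Taking the probe set with the largest difference could only keep or raise the size of a value. No choice used the dimmer probe set of *Plod1* (-0.035) alone. The other choices were applied 1 at a time, and combinations of them were not tested. Keeping only probe sets above the median, which is not drawn, left out *Lox* and gave the other 7 genes the values stated above.

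**Figure D4:**
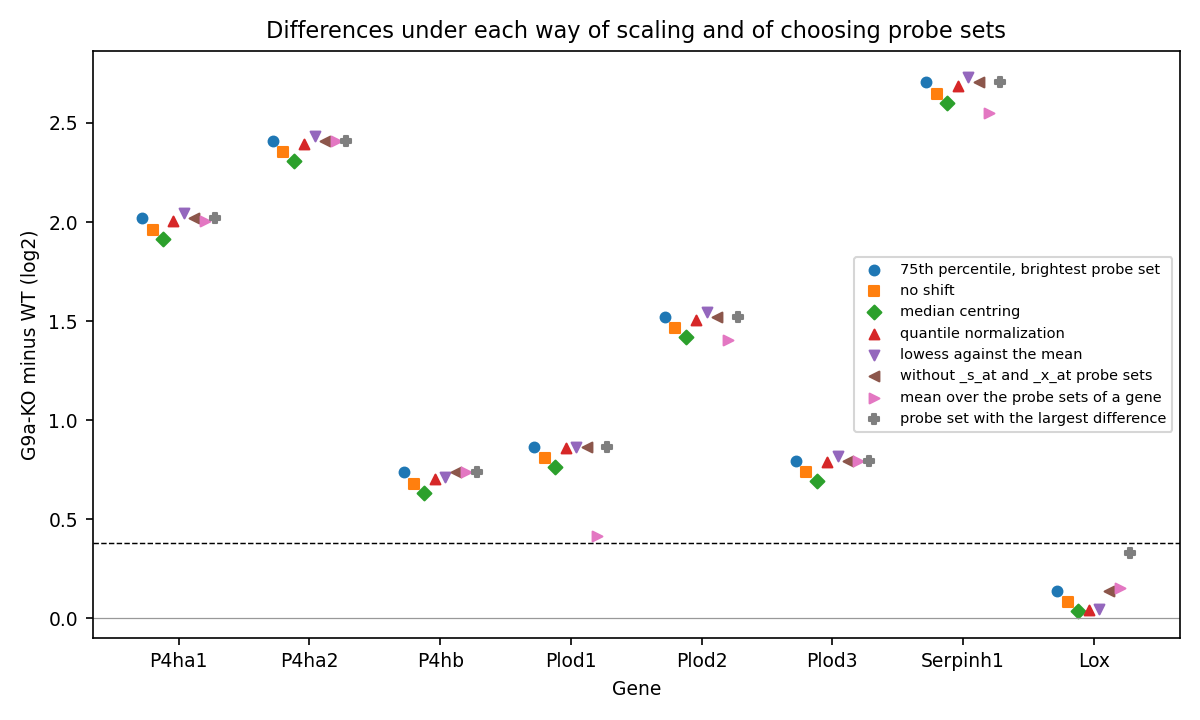
G9a-KO minus WT (vertical axis, log2) of 8 genes (horizontal axis) with the scaling and probe set used in the text (blue circles) and with 7 of the 8 others (other symbols), with a dashed line at 1.3-fold. Each gene other than *Lox* lies above the dashed line throughout, and *Plod1* comes nearest to it (0.42) when its probe sets are averaged.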

How the data were processed

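Biotin-labelled cRNA from 200 ng of total RNA of each culture was hybridized by the authors to an Affymetrix mouse expression array, and the deposited values are log2 signals per probe set. The submitters' processing notes name RMA and R, version 3.2.1, and no package. RMA brings arrays to one distribution, so a difference in total RNA per cell cannot be seen.

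Following the methods of the study, the 75th percentile of the 45101 probe sets was subtracted (7.37 in WT, 7.31 in G9a-KO) and G9a-KO minus WT was taken. In GEO's platform annotation 34958 probe sets had 1 gene symbol, 932 several and 9211 were unnamed here. By gene ID, 34754 matched the GRCm38.p6 RefSeq table. The probe set with the highest mean stood for a gene in gene counts. No p-value was computed with 1 array per group.

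The members and lists were chosen with earlier results of these data known. All members were named, and from each other list the 4 largest absolute differences among genes over the probe set median in WT or G9a-KO whose probe sets over it ran 1 way, all type IV collagen chains and *Ehmt2*. *Lum*, *Vim*, *Thbd*, *Fst*, *Adm*, *Kdm3a*, *Pdk1* and *Sar1a* were named outside this rule, after their values were seen. So were *Hspa5*, *Erp44*, *Pdia4*, *Ero1b*, *Egln1*, *Egln3*, *Pou5f1*, *Col1a1*, *Col3a1*, *Thy1*, *Dcn*, *Slc23a1*, *Slc23a2* and *Sec23b*. Lists for amino acid and cofactor supply and ER export were added after the data were seen. Alternatives were no shift, median centring, quantile normalization, lowess (span 0.3), probe sets above the median, probe sets without _s_at and _x_at endings, other probe set rules and a 2-fold limit. The steps were tested on simulated data. Python 3.11.15, pandas 2.3.3 and statsmodels 0.14.6 were used.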

Additional observations from a re-analysis of the deposited data

How the results depend on the processing

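With each alternative for scaling, filtering or choosing probe sets applied alone, member genes other than *Lox* kept their direction and stayed above 1.3-fold. Taking the probe set with the largest difference could not have brought any of them under it. Of the values of the members, 0 reversed. The median of the member genes was 1.09 to 1.52, with the highest value, 1.52, when only probe sets above the median were kept, since *Lox* then dropped out. The count of member probe sets over 1.3-fold higher was 7 to 10, with 7 at 2-fold. No member probe set was over 1.3-fold lower under any alternative. Averaging probe sets gave 0.42 for *Plod1*, 1.40 for *Plod2* and 2.55 for *Serpinh1*, and the probe set with the largest difference gave 0.33 for *Lox*. Of the collagen chains, 0 of which were over 1.3-fold lower, 2 were lower with no shift and 3 were lower with median centring, quantile normalization or lowess against the mean. Of the COPII genes, 5 higher and 0 lower became 2 and 1 with no shift and 2 and 2 with median centring. Over all genes, the higher ones made up 50.4% of calls (3172 against 3126), and 36.9% (2365 against 4050) with median centring, which lowers every difference by 0.10. No paired analysis was possible because each group has 1 array. The signal of *Lox*, below the median on both arrays, limits what can be said of it.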

Other observations

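Genes that supply the amino acid and the cofactors of the hydroxylases went both ways (a list made after the data were seen). Of 10 measured, 4 were over 1.3-fold higher and 3 lower in G9a-KO, against 17.4% and 17.2% of all genes. Their median was 0.055. *Aldh18a1*, which makes the precursor of proline from glutamate, was 2.33-fold higher (from 1.75 in WT to 2.97 in G9a-KO). Its 5 probe sets ran from 0.91 to 1.22. *Prodh*, which breaks proline down, was 3.62-fold lower (-0.14 and -1.99), by its only probe set. *Pycrl*, the last step of proline synthesis by another route, was 1.82-fold lower (1.93 and 1.07). The transferrin receptor gene *Tfrc*, which brings iron into the cell, was bright and 1.59-fold higher (4.61 and 5.29), and its 6 probe sets ran from 0.67 to 1.41. The ascorbate transporter genes differed by -0.67 (*Slc23a1*) and -0.022 (*Slc23a2*).

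Genes of the COPII coat and its receptors, which carry procollagen out of the ER, differed less (also a list made after the data were seen). Of 15 measured, 5 were over 1.3-fold higher and 0 lower, against 17.4% and 17.2% of all genes. Their median was 0.014. *Sar1a* had the highest difference (1.14), but its other probe set differed by -0.13. *Sec23a*, a coat subunit known to be needed for collagen export, was 2.04-fold higher (1.93 and 2.96), whereas the paralogue *Sec23b* differed by -0.12. *Mcfd2* (0.43), *Sec24a* (0.42, and 1.06 by its other probe set) and *Lman1* (0.39) followed. The 5 probe sets of *Lman1* ran from 0.15 to 1.51.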
